A study of Mus musculus with 12 samples.

Results

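Tumors of mice given a plasmid for IL-27, in either of its forms and with or without IL-18, were compared with tumors of mice given the empty plasmid. By the labels, 8 of the 12 RNA libraries of the series received an IL-27 plasmid, 2 each from the groups IL-27, 27→18, 27pepL and 27pepL→18, and the 4 others came from pMCS and IL-18. The comparison was fitted with IL-18 given or not as a second term, so that it asks what the IL-27 plasmids had in common. All mice were C57BL/6 males of 8 to 10 weeks carrying subcutaneous TC2R tumors, which are TRAMP-C2 prostate adenocarcinoma cells with an activated H-ras, so that every tumor came from 1 transplanted line.

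Every mouse received a plasmid by sonoporation, the delivery of DNA with ultrasound and microbubbles, into muscle on day 4. The pMCS and IL-18 groups received the empty plasmid pMCS. The IL-27 and 27→18 groups received a plasmid for IL-27 that ends in a non-specific peptide, and the 27pepL and 27pepL→18 groups received a plasmid for IL-27 that ends in a peptide binding IL-6Rα. The IL-18, 27→18 and 27pepL→18 groups also had recombinant IL-18 injected into the tumor on day 10, and tumors were harvested on day 26. Each library was a pool of 4 to 6 tumors. The labels do not say how the mice of a group were divided between its pools. The number of mice given for a whole group has the same range as the number of tumors in a single pool. Whether the libraries of a group hold different mice or share tumors is therefore not known. P-values thus measure only the spread between these libraries, which may not be a spread between mice.

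IL-27 is a secreted pair of proteins, p28 (gene Il27) and EBI3 (gene Ebi3), that binds IL-27Rα and gp130 (genes Il27ra and Il6st). Its signaling is known to drive interferon-regulated genes such as the guanylate-binding proteins, the immunity-related GTPases and the genes of MHC antigen presentation. In tumors IL-27 is known for effects on NK cells, T cells and macrophages.

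The libraries held 49844915 to 76620862 counts, at which 3 counts correspond to 0.0392 to 0.0602 raw CPM, the count scaled to the library's total. All further levels are CPM scaled with TMM factors unless they are called raw. Liver transcripts split the libraries: 115 genes summed to 408 to 625 raw CPM in the 6 libraries of IL-27 and its 2 control groups and to 0.138 to 0.44 raw CPM in the 6 others, and Alb, the liver's albumin, was at 142 to 217 raw CPM in the former and listed at 0 in the latter. These genes and the members of a liver list, 143 in all, were set aside, and every library that lacked them had received an IL-27 plasmid. Outside the IL-27 group, the IL-27 plasmid and the absence of liver transcripts therefore cannot be told apart. IL-27 replicate 1 stood apart from the other libraries. The mean log2 level of 14 adipocyte genes was 7.92 there and 0.45 to 4.33 elsewhere, the leukocyte marker Ptprc was at 188 raw CPM there and at 1.77 to 27.2 elsewhere, and its median Pearson r with the others was 0.918 (0.957 to 0.979 for the rest). The main values are therefore given with all 12 libraries and without IL-27 replicate 1. The skeletal muscle list was highest in both 27→18 libraries, at a mean log2 level of 3.05 and 1.91, and at −0.03 to 0.61 elsewhere. The tumor cell marker Krt8 (9.22 to 118 raw CPM) was found in every library, and Pbsn, the prostate's probasin, was listed at 0 in all. In bulk tumor RNA, fewer cells of a type and less RNA per cell cannot be told apart.

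**Figure D1:**
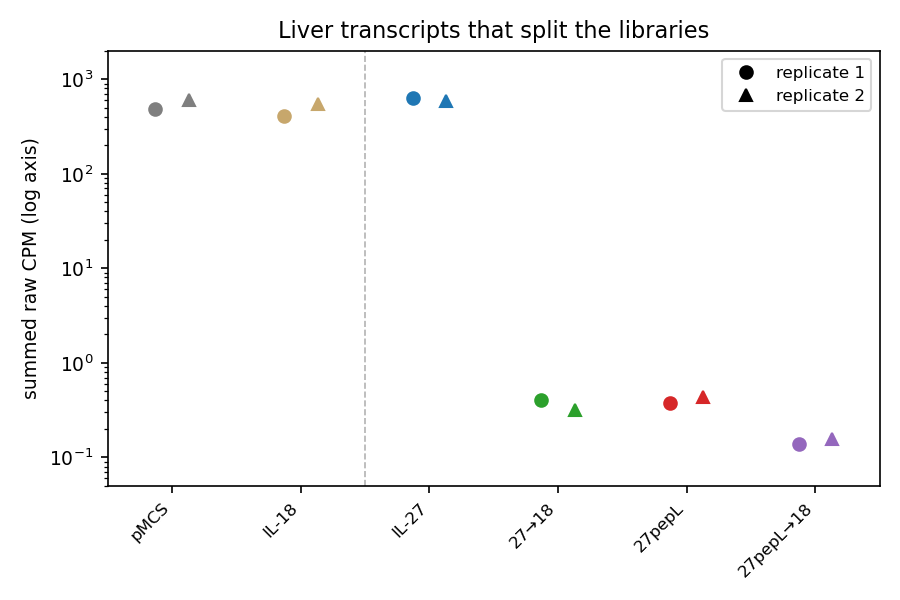
Summed raw CPM of the 115 liver transcripts that split the libraries, on a log axis, by group (circles are replicate 1, triangles replicate 2, and the dashed line separates the groups without an IL-27 plasmid on the left). The 6 libraries of IL-27, pMCS and IL-18 sit between 408 and 625, and the 6 libraries of 27→18, 27pepL and 27pepL→18 between 0.138 and 0.44.

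No gene outside the liver set differed between libraries with and without an IL-27 plasmid after adjustment over all 20417 genes tested, either with all libraries or without IL-27 replicate 1. Among the 24 leading genes described next, the smallest p on the higher side were those of Apoe, Cxcl2, Ptms and Uqcc1, and on the lower side those of Pcdhga12, Hmga1 and Clgn. By edgeR's quasi-likelihood test the smallest adjusted p was 1 with 12 libraries and 0.997 with 11. At an unadjusted p under 0.05, 328 of 20275 genes were higher (1.62%) and 171 lower (0.843%), or 2.46% in all, and without IL-27 replicate 1 the counts were 275 (1.36%) and 244 (1.2%). Adding a log2 fold change beyond 1, the thresholds of the study, left 244 higher (1.2%) and 93 lower (0.459%) with 12 libraries and 129 (0.636%) and 161 (0.794%) without IL-27 replicate 1. At these thresholds that library thus turned the balance of directions, which at an unadjusted p alone stayed on the higher side. Of the genes beyond the thresholds of the study, 110 higher and 75 lower were the same in both fits. DESeq2 called 10 genes at an adjusted p under 0.05 with 12 libraries, among them Apoe, Cxcl2, Gzma, Uqcc1 and Cxcl5. The others included genes near the floor or led by 1 library. Ugt1a5 was at 5.71 CPM in IL-18 replicate 1 and at 0.52 CPM or less elsewhere. Tcap was highest in 27→18 replicate 1 at 3.30 CPM, and Fam178b reached 0.593 CPM at most. Without IL-27 replicate 1 DESeq2 called 6, with Pcdhga12 and Tcap among them but none of Apoe, Cxcl2, Gzma, Uqcc1 and Cxcl5. Limma called 0 in either. Among the 142 liver genes tested, 113 were lower at the same thresholds as the 244, with a median log2 fold change of −4.68, which describes the split of the libraries.

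The genes named first are the 12 in each direction with the smallest p among those at an unadjusted p under 0.05 in both fits, of 128 eligible on the higher side and 52 on the lower. Since p chose them, their values are a description. Apoe (ENSMUSG00000002985, chromosome 7), the lipid carrier made in quantity by macrophages, was at 103 and 143 CPM in pMCS, at 123 and 94.7 in IL-18, and at 107, 321 and 739 CPM (lowest, median, highest) in the 8 libraries with an IL-27 plasmid. Of those 8, 7 lay above all 4 without the plasmid and IL-27 replicate 2 lay among them. The fitted difference was 3.34-fold (log2 1.74, SE 0.415) with 12 libraries and 2.97-fold without IL-27 replicate 1. Cxcl2 (ENSMUSG00000058427, chromosome 5), a chemokine that draws neutrophils, was at 1.63 and 1.18 CPM in pMCS, at 1.43 and 2.64 in IL-18, and at 2.46, 4.65 and 8.77 CPM with the plasmid. Here 7 of 8 libraries lay above all 4 others, and the exception was 27→18 replicate 1. The difference was 2.92-fold in both fits (log2 1.55, SE 0.395 with 12 libraries). Cxcl2 kept an unadjusted p under 0.05 in every fit tried, 27 alternatives with 12 libraries and 25 without IL-27 replicate 1, the only leading gene to do so.

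Gzma (ENSMUSG00000023132, chromosome 13), granzyme A of NK cells and cytotoxic T cells, was at 0.189 and 0.328 CPM in pMCS, at 0.308 and 0.474 in IL-18, and at 0.482, 1.83 and 37.8 CPM with an IL-27 plasmid. All 8 libraries lay above all 4 others, though 27pepL replicate 2, at 0.482, did so by little, and 3 of them (IL-27 replicate 1, 27→18 replicate 2 and 27pepL→18 replicate 2) carried most of the signal at 37.8, 11.7 and 7.64 CPM. The difference was 22.4-fold (log2 4.48, SE 1.35) and 7.21-fold without IL-27 replicate 1. Uqcc1 (ENSMUSG00000005882, chromosome 2), an assembly factor of mitochondrial complex III, differed little but evenly. It was at 36.4 and 28.4 CPM in pMCS and 30.4 and 28.0 in IL-18, against 39.0 to 47.0 CPM with the plasmid, without overlap, for a difference of 1.38-fold (log2 0.46, SE 0.131) and 1.40-fold without IL-27 replicate 1. Eapp, a protein that binds E2F factors, likewise did not overlap, at 17.7 to 19.7 CPM without and 22.4 to 36.7 CPM with an IL-27 plasmid (log2 0.55, SE 0.168, and 0.57 without IL-27 replicate 1).

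Both Trem2, a lipid-sensing receptor of macrophages, and Clec4d, a C-type lectin receptor of myeloid cells, lay above all controls in 7 of 8 libraries. Trem2 was at 10.6, 12.3, 15.0 and 8.58 CPM in the 2 pMCS and 2 IL-18 libraries and at 12.6, 21.5 and 30.6 CPM with the plasmid, with IL-27 replicate 2 again the exception. The difference was 1.86-fold (log2 0.89, SE 0.270) and 1.74-fold without IL-27 replicate 1. Ccl3, a chemokine for monocytes and NK cells, was at 1.28 to 2.48 CPM without and 1.68 to 6.05 CPM with the plasmid, 7 of 8 libraries lying above (log2 1.27, SE 0.392, and 1.17 without IL-27 replicate 1). The 5 remaining genes overlapped more or less with the controls. With 12 libraries and without IL-27 replicate 1, Clec4d itself was 2.31-fold and 2.15-fold higher. Insr, the insulin receptor, was 2.19-fold and 1.99-fold higher, Pcmtd1 2.19-fold and 2.03-fold, Mitf, a transcription factor of pigment cells, mast cells and macrophages, 2.33-fold and 2.27-fold, and Ptms, parathymosin, 1.77-fold and 1.72-fold. Of the 12 genes, 3 did not overlap with the controls, 5 lay above them in 7 of 8 libraries and 4 in fewer. All 12 kept an unadjusted p under 0.05 when each of the 12 libraries was left out in turn. Without IL-27 replicate 1, Pcmtd1 lost it when either IL-18 library was also left out (log2 0.78 and 0.80).

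**Figure D2:**
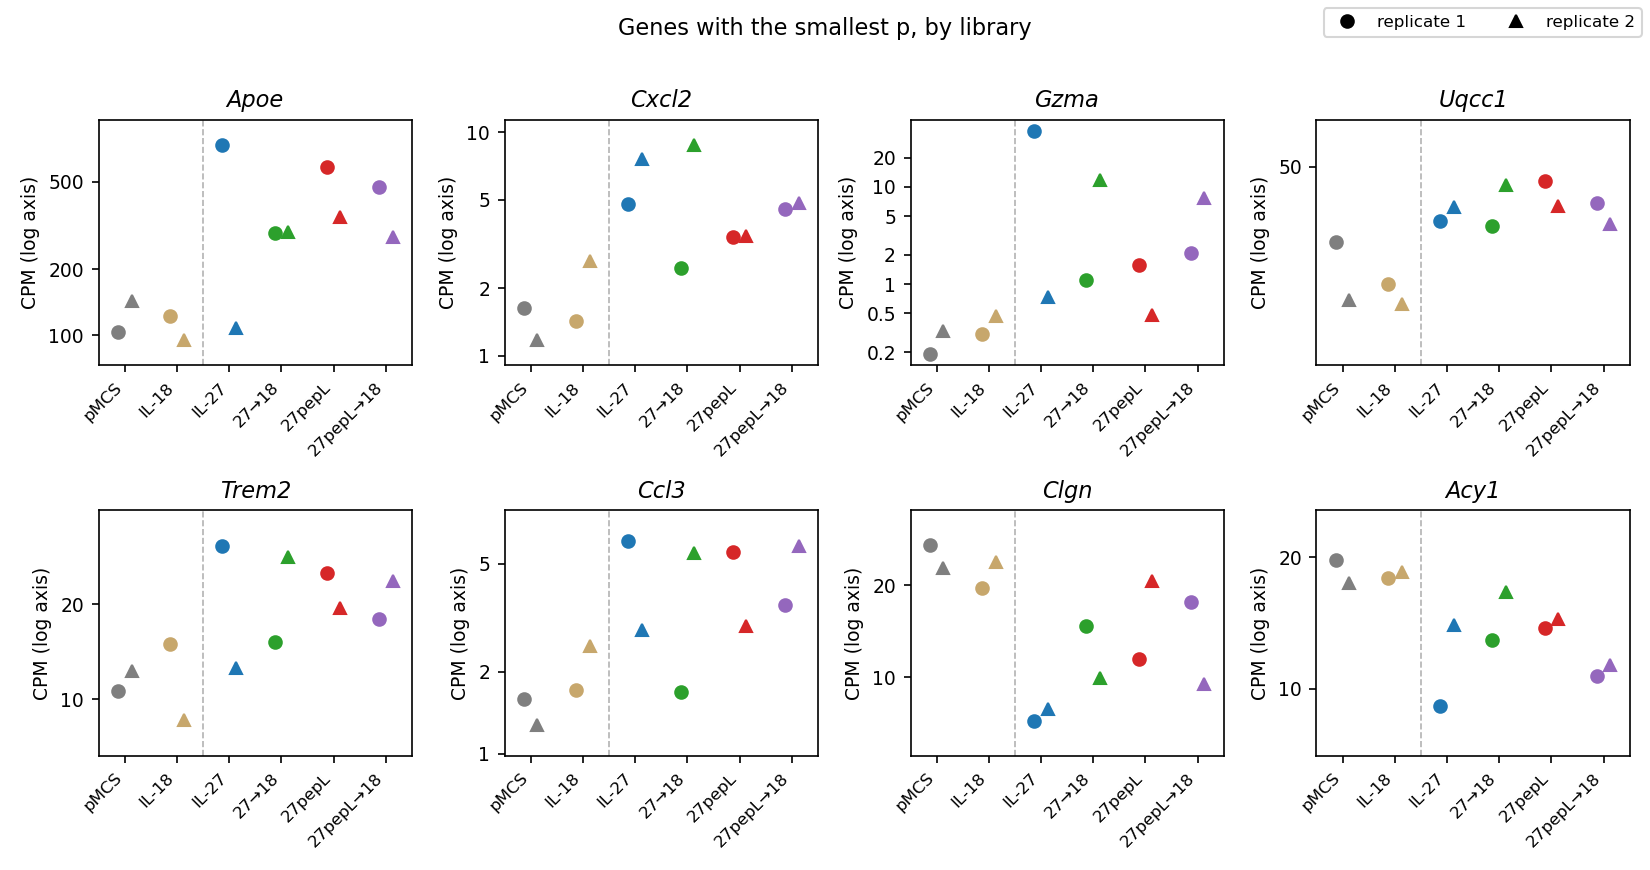
CPM on a log axis of 8 of the leading genes in each of the 12 libraries, by group (circles are replicate 1, triangles replicate 2, and the dashed line separates the groups without an IL-27 plasmid on the left). Apoe sits at 94.7 to 143 CPM without the plasmid and at 281 CPM or more in 7 of 8 libraries with it, while Acy1 sits at 17.5 to 19.7 CPM without and at 9.13 to 16.6 CPM with it.

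On the lower side, Acy1 (ENSMUSG00000023262, chromosome 9), an aminoacylase, was the only leading gene without overlap. It was at 19.7 and 17.5 CPM in pMCS, at 17.9 and 18.5 in IL-18, and at 9.13, 13.4 and 16.6 CPM with an IL-27 plasmid (log2 −0.51, SE 0.181, and −0.44 without IL-27 replicate 1). Clgn, a chaperone of the endoplasmic reticulum best known from the testis, was at 19.5 to 27.1 CPM without and 7.19 to 20.7 CPM with the plasmid, 7 of 8 libraries lying below (log2 −0.91, SE 0.285, and −0.81 without IL-27 replicate 1). Gatad2a, a subunit of the NuRD chromatin complex, Cit, the citron kinase of cytokinesis, and Pwwp2a, a reader of histone marks, lay below all controls in 7 of 8 libraries with log2 fold changes of −0.42, −0.76 and −0.56 with 12 libraries and −0.40, −0.78 and −0.52 without IL-27 replicate 1. Cx3cl1, the membrane-bound chemokine fractalkine, was at 54.8 to 78.9 CPM without and 37.5 to 60.9 CPM with the plasmid (log2 −0.44, SE 0.152), and the groups overlapped. Several of the lower values depended strongly on 1 library. Hmga1, a chromatin protein of growing cells, was at 1048 CPM in pMCS replicate 1 and at 78.0 to 293 CPM elsewhere, and its log2 fold change went from −1.40 to −0.61 (SE 0.325) without that library. Pcdhga12, a protocadherin, was at 249 CPM in pMCS replicate 2 and at 0.318 to 9.21 CPM elsewhere, and its log2 fold change went from −5.57 to −2.30 without that library, at an unadjusted p that stayed under 0.05 with each of the 12 libraries left out. With 12 libraries, 5 others lost an unadjusted p under 0.05 when a control library was left out, Gatad2a, Cx3cl1, Speg, Yeats2 and Pwwp2a, and so did Aak1 without IL-18 replicate 1 (log2 −1.72 in place of −2.38, SE 0.786). Pcdhga12 shares exons with the rest of its gene cluster and Hmga1 has close pseudogene copies, so that the counts of both are uncertain.

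**Figure D3:**
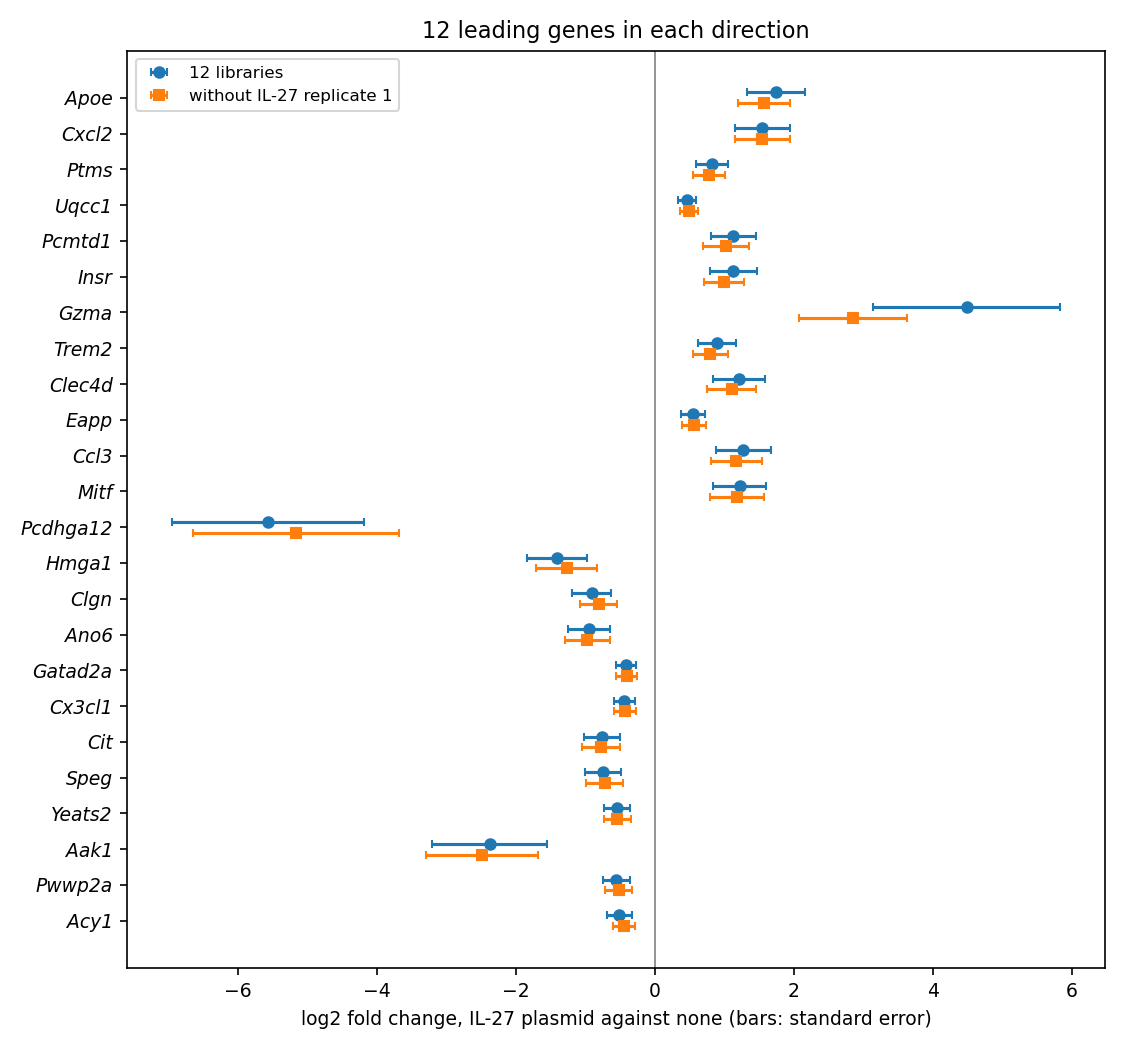
Log2 fold change between libraries with and without an IL-27 plasmid for the 12 leading genes in each direction, with bars of 1 SE, for 12 libraries (circles) and without IL-27 replicate 1 (squares). The points of a gene lie close together except for Gzma, which goes from 4.48 to 2.85, and no gene passed an adjusted p of 0.05 in either fit.

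The interferon-inducible GTPases, which act against intracellular pathogens, had the highest median of the 35 gene lists with all libraries. All 15 members had a positive log2 fold change, with a median of 1.71 beside 0.013 for all genes, and 5 of 15 were higher at an unadjusted p under 0.05, beside 1.62% of all genes. Without IL-27 replicate 1 all 15 remained positive, but the median was 0.44 and 2 members had an unadjusted p under 0.05, beside 1.36% of all genes. Tgtp1 was at 2.93 and 3.09 CPM in pMCS and 2.40 and 1.33 CPM in IL-18. With an IL-27 plasmid it was at 70.3 and 0.91 CPM in IL-27, 11.8 and 9.62 in 27→18, 4.27 and 2.30 in 27pepL and 9.19 and 7.0 in 27pepL→18. Thus 6 of 8 libraries lay above all controls, IL-27 replicate 2 below them, and the 2 IL-27 libraries spanned the whole range. The log2 fold change was 2.51 (SE 0.978) with 12 libraries and 0.96 (SE 0.588) without IL-27 replicate 1, and its near-identical copy Tgtp2 (log2 1.85) may share reads with it.

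Gbp2b, a guanylate-binding protein, was at 0 to 0.189 CPM in the controls and at 0.182 to 23.2 CPM in 7 libraries with an IL-27 plasmid, 6 of which lay above all controls, while IL-27 replicate 2 was listed at 0. Iigp1, an immunity-related GTPase, lay above all controls in 7 of 8 libraries and below them in IL-27 replicate 2, at 3.36 to 7.26 CPM without and 2.47, 16.2 and 205 CPM with the plasmid. It and Igtp were the members that kept an unadjusted p under 0.05 without IL-27 replicate 1, at log2 1.03 (SE 0.464) and 0.78. By library, the list mean was a log2 level of 1.80 to 2.50 without the plasmid and of 1.24, 3.0 and 6.55 with it. The 2 libraries of the IL-27 group were the highest and the lowest of all 12, and the 6 libraries of 27→18, 27pepL and 27pepL→18 lay in between and above every control.

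Promoter sequences are shown for 4 of these genes, Gbp2b and Tgtp1 as the GTPases with the smallest p, and Gzma and Cxcl2 as the leading genes that carry a searched motif. Each is the 250 bases before the RefSeq start of the gene (GRCm38.p6), on the gene's strand, with capitals marking matches on either strand to the core of the interferon-stimulated response element (GAAA, any 2 bases, GAAA), the gamma-activated site (TTC, any 3 bases, GAA) or an NF-kB site (GGGA, any base, TTTCC).
Gbp2b, chr3:142594597-142594846, plus strand: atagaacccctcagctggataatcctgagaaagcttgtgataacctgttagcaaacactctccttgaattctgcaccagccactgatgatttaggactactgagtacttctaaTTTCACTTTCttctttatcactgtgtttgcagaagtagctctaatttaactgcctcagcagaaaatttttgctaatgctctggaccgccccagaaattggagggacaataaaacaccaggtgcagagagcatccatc
Tgtp1, chr11:48992247-48992496, minus strand: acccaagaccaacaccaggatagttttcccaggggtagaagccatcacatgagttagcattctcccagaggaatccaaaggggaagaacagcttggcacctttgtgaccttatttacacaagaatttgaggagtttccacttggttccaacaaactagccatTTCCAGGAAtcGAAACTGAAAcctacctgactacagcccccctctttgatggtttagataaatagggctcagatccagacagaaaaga
Gzma, chr13:113100982-113101231, minus strand: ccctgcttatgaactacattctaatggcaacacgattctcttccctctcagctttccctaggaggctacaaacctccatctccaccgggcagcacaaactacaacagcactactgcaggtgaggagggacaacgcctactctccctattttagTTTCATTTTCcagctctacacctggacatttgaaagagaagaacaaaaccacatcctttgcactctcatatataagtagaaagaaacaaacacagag
Cxcl2, chr5:90903649-90903898, plus strand: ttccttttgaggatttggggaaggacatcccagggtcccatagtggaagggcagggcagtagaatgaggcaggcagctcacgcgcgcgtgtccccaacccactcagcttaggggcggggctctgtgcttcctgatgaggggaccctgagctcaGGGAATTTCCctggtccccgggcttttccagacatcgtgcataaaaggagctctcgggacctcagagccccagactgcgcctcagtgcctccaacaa

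The response element starts 137 bases before the start of Gbp2b, 77 before that of Tgtp1 and 97 before that of Gzma. Tgtp1 also holds a gamma-activated site at 88 bases, next to the response element. Cxcl2 holds the NF-kB site at 97 bases. Motifs were counted by gene, over any of its promoters. Of the GTPases, 10 of 15 were matched to the promoter table. All 10 held the response element, which 3.46% of the 27025 genes in the table held, while 6 held a gamma-activated site, found in 8.13% of these genes. Among 10 of the 12 leading higher genes that were matched, 1 (Gzma) held the response element, 1 (Cxcl2) the NF-kB site, found in 0.41% of genes in the table, and 0 the gamma-activated site. The 10 matched leading lower genes held none of the 3 motifs in these windows. A match describes the letters only.

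The genes of antigen presentation had positive medians in both fits. MHC class II presentation had a median log2 fold change of 1.55 with all libraries and 0.78 without IL-27 replicate 1, 10 of 10 members being positive in both. Ctss, cathepsin S, which trims the invariant chain, was at 82.7 and 124 CPM in pMCS, 145 and 86.0 in IL-18, against 89.5, 242 and 909 CPM with an IL-27 plasmid, 7 of 8 libraries lying above all controls (log2 1.47, SE 0.514, and 1.07, SE 0.337, without IL-27 replicate 1). H2-Aa, an MHC class II chain, was at 6.80 to 55.0 CPM without and 24.5 to 956 CPM with the plasmid, and the groups overlapped (log2 2.16, SE 1.0, and 0.88 without IL-27 replicate 1). MHC class I presentation had medians of 0.81 and 0.39, with 17 and 16 of 17 members positive, and 2 of 17 were higher at an unadjusted p under 0.05 in each fit, beside 1.62% and 1.36% of all genes. With 12 libraries these were the proteasome activators Psme1 (log2 0.52, SE 0.228) and Psme2 (log2 0.71, SE 0.314), and without IL-27 replicate 1 they were B2m (log2 0.42) and H2-D1 (log2 0.52). The list means lay above all controls in 5 of 8 libraries for class II and 6 of 8 for class I. In IL-27 replicate 2 the class I mean was a log2 level of 4.56, below the 4.68 to 5.30 of the controls. With that library alone against pMCS and IL-18, the median log2 fold change was −0.53 for class I and −0.45 for class II.

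The antiviral interferon-stimulated genes and the interferon gamma axis gave lower medians that shrank without IL-27 replicate 1. Of 25 antiviral genes, 0 had an unadjusted p under 0.05 in either edgeR fit, and the median went from 0.74 to 0.20. In the interferon gamma axis the median went from 0.90 to 0.27. With 12 libraries 1 of 14 members was higher at an unadjusted p under 0.05, beside 1.62% of all genes. That member was Cxcl9, a chemokine for T cells induced by interferon gamma (log2 2.66, SE 1.17). Without IL-27 replicate 1 none had such a p (Cxcl9 log2 0.82, SE 0.659).

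**Figure D4:**
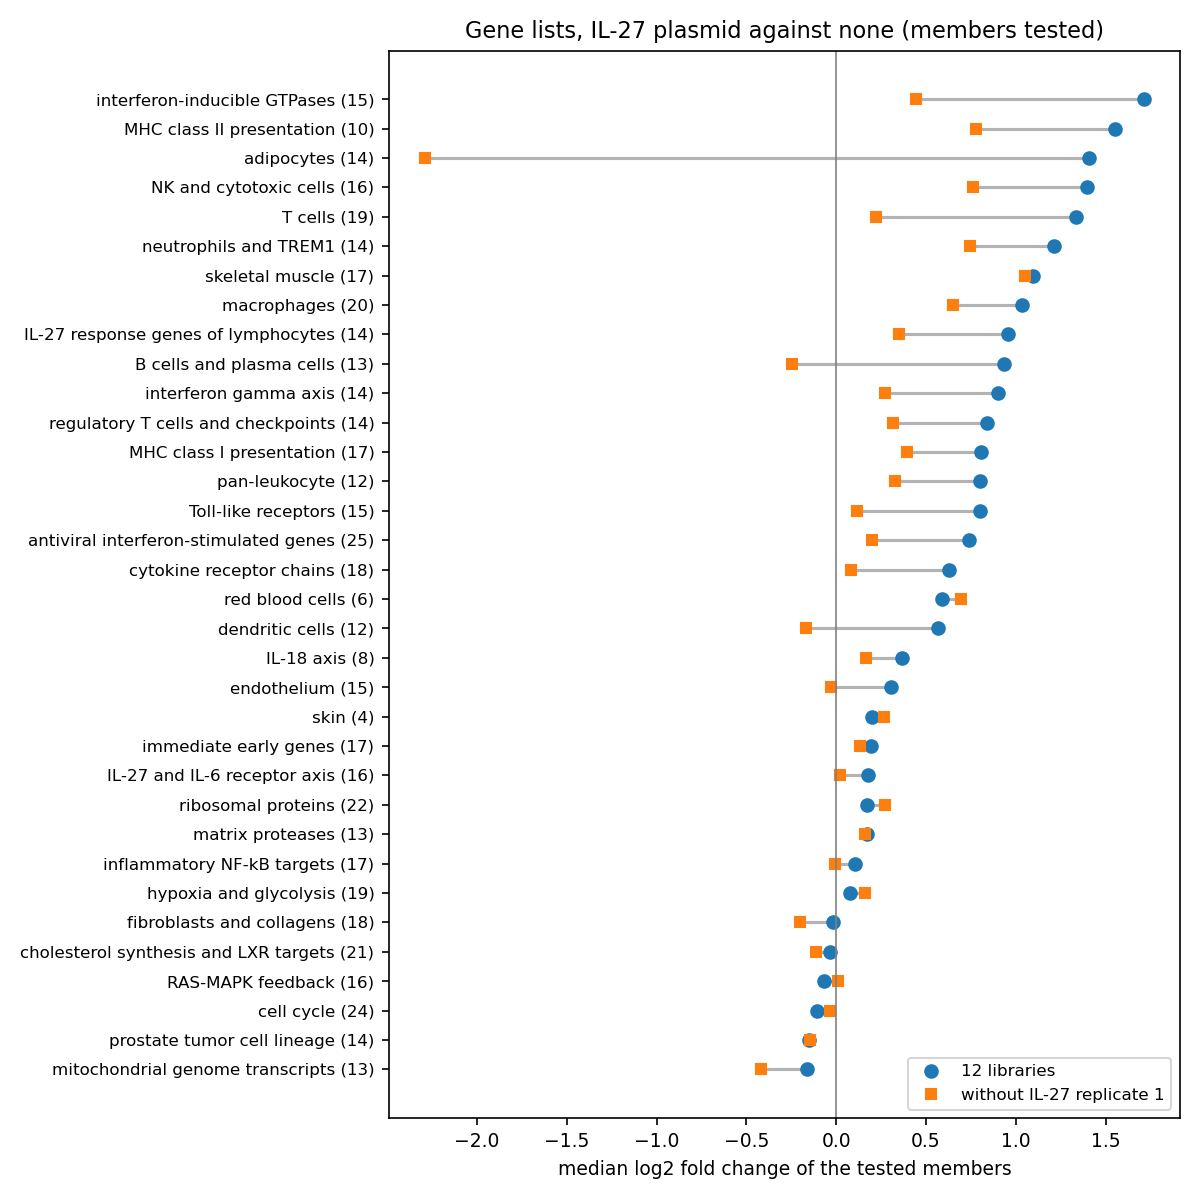
Median log2 fold change of the tested members of 34 gene lists (the liver list, at −4.99 and −5.01, is left out), with 12 libraries (circles) and without IL-27 replicate 1 (squares). The interferon-inducible GTPases are at 1.71 and 0.44, the NK and cytotoxic cells at 1.40 and 0.76, and the adipocytes at 1.41 and −2.29.

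NK and cytotoxic cells had a median log2 fold change of 1.40 with 12 libraries and 0.76 without IL-27 replicate 1, and 5 of 16 members were higher at an unadjusted p under 0.05 in each fit, beside 1.62% and 1.36% of all genes. Besides Gzma these were the NK receptors Klra8 (log2 2.68, SE 0.926), Klrd1 (log2 1.97, SE 0.794), Cd244a (log2 0.81, SE 0.327) and Klre1 (log2 2.33, SE 1.03) with 12 libraries, and Gzmb, granzyme B, took the place of Klre1 without IL-27 replicate 1 (log2 0.87, SE 0.349). Klra8 belongs to a family of near-identical genes whose counts are uncertain. The list mean was a log2 level of 0.897 to 1.23 without an IL-27 plasmid and of 0.613, 1.75 and 3.99 with it. It lay above all controls in 7 of 8 libraries and below them in IL-27 replicate 2. The defining marker Ncr1 was at 0.674 to 0.94 CPM in the controls and at 0 to 8.56 CPM with the plasmid, with a log2 fold change of −0.21 (SE 0.792) once IL-27 replicate 1 was left out.

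The T cell genes were carried by IL-27 replicate 1. Their median was 1.33 with it and 0.22 without it. Of 19 members 1 and 0 were higher at an unadjusted p under 0.05, beside 1.62% and 1.36% of all genes. The T cell receptor chain Trbc1 was that member (log2 1.74, SE 0.779, and 0.80, SE 0.579). Cd3e was at 0.125 to 1.12 CPM in the controls and at 0 to 7.58 CPM with the plasmid. Regulatory T cell and checkpoint genes had medians of 0.84 and 0.32, where Cd80, a costimulatory ligand, was at 1.14 to 2.32 CPM without and 2.02 to 18.5 CPM with the plasmid (log2 1.41, SE 0.618, and 0.94, SE 0.318). The B cell median turned from 0.93 to −0.25 and the dendritic cell median from 0.57 to −0.17. Of their members Cd22, an inhibitory B cell receptor, lay above all controls in 7 of 8 libraries, at 0.307 to 0.989 CPM without and 0.278, 1.82 and 7.85 CPM with the plasmid (log2 1.76, SE 0.717, and 1.20, SE 0.53). Itgax and Cd83, markers of dendritic cells that other activated leukocytes also carry, had log2 fold changes of 1.05 (SE 0.441) and 1.07 (SE 0.424) without IL-27 replicate 1. In each fit 1 of 13 B cell genes and 2 of 12 dendritic cell genes were higher at an unadjusted p under 0.05, beside 1.62% and 1.36% of all genes. Only 6 of the 13 and 5 of the 12 had a log2 fold change above 0 without IL-27 replicate 1.

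The macrophage list had a positive median in both fits. The median was 1.04 with 12 libraries and 0.65 without IL-27 replicate 1, with 19 and 18 of 20 members positive (51.66% and 49.4% of all genes were), and 5 members were higher at an unadjusted p under 0.05 in each fit, beside 1.62% and 1.36% of all genes. In both fits these were Apoe, Trem2, the complement chains C1qa and C1qb, and Msr1, a scavenger receptor. C1qa was at 72.1 and 140 CPM in pMCS, 185 and 105 in IL-18, against 102, 283 and 633 CPM with an IL-27 plasmid (log2 1.25, SE 0.445, and 0.98, SE 0.349). Msr1 was at 14.9 to 28.9 CPM without and 18.2, 36.3 and 84.0 CPM with the plasmid. For each of C1qa and Msr1, 6 of 8 libraries lay above all controls. The list mean was a log2 level of 3.96 to 5.09 without the plasmid and of 4.55, 5.40 and 7.04 with it, and IL-27 replicate 2 was the only one of the 8 that did not lie above all controls. Adgre1, the defining marker F4/80, was at 6.88 to 17.5 CPM without and 6.76 to 132 CPM with the plasmid (log2 1.28, SE 0.678, and 0.67, SE 0.385).

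**Figure D5:**
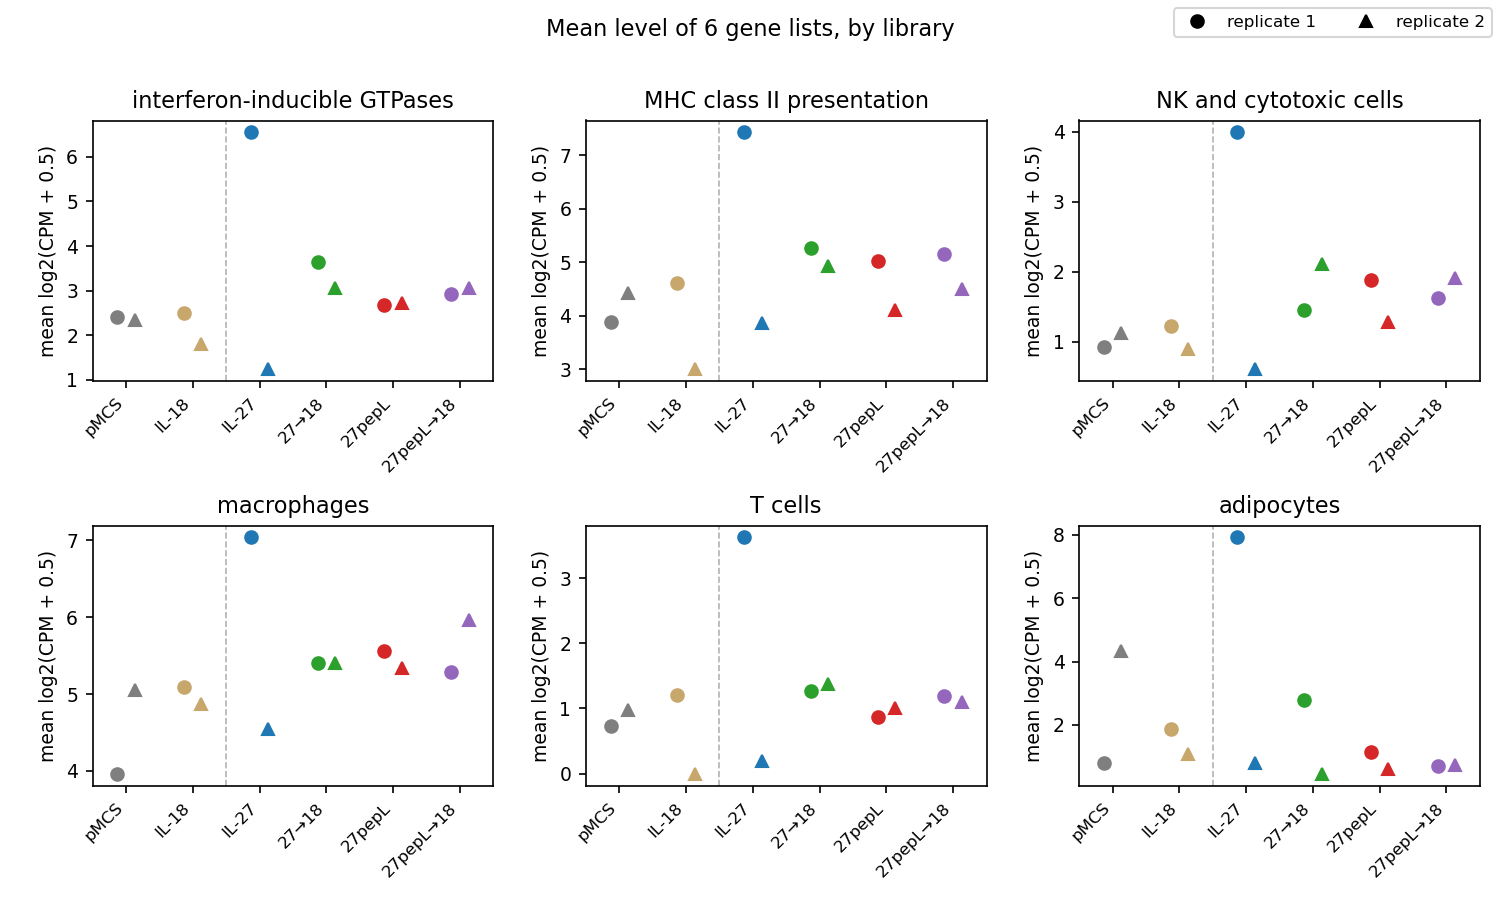
Mean log2(CPM + 0.5) of 6 gene lists in each of the 12 libraries, by group (circles are replicate 1, triangles replicate 2, and the dashed line separates the groups without an IL-27 plasmid on the left). IL-27 replicate 1 is the highest library in all 6 panels, and for the interferon-inducible GTPases the means are 1.80 to 2.50 without the plasmid and 1.24 to 6.55 with it.

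Cxcl5, a neutrophil chemokine, was at 0.449 and 0.138 CPM in pMCS, 0.357 and 0.237 in IL-18, against 0.35, 1.31 and 2.84 CPM with an IL-27 plasmid. It lay above all controls in 7 of 8 libraries, and its log2 fold change was 2.14 (SE 0.58) and 1.82 (SE 0.499) without IL-27 replicate 1. In the list of neutrophils and TREM1 the medians were 1.21 and 0.75, with 2 and 3 of 14 members higher at an unadjusted p under 0.05, beside the same 1.62% and 1.36%. They were Cxcl2 and Cxcl5, joined without IL-27 replicate 1 by Il1b (log2 0.74, SE 0.281), while the neutrophil marker S100a8 was at 0.616 to 2.70 CPM without and 0.623 to 9.23 CPM with the plasmid (log2 1.14, SE 0.818). Among inflammatory NF-kB targets 4 of 17 were higher at an unadjusted p under 0.05 in each fit, beside 1.62% and 1.36% of all genes, yet the median was 0.10 and −0.01, near that of all genes. With 12 libraries these were Ccl3, Ccl4 (log2 1.06, SE 0.391), Il1a (log2 1.69, SE 0.705) and Ccl7 (log2 1.04, SE 0.47), all of them secreted cytokines or chemokines. Without IL-27 replicate 1, Il1b took the place of Ccl7, while Ccl2, a monocyte chemokine of the same list, had log2 fold changes of 0.10 and −0.01. The Toll-like receptor list had medians of 0.80 and 0.12.

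The plasmids were delivered to muscle, and Il27 transcript was near the limit of detection in the tumors. Il27 was at 0 to 0.26 CPM in the controls and at 0 to 1.18 CPM with a plasmid, the highest being IL-27 replicate 1, with log2 1.64 (SE 1.46) and 0.57 (SE 1.52). Its partner Ebi3 was at 0.544 and 1.56 CPM in pMCS, 1.88 and 1.04 in IL-18, against 0.928, 2.76 and 13.3 CPM with the plasmid. It lay above all controls in 7 of 8 libraries (log2 1.53, SE 0.661, and 0.97, SE 0.404). The receptor chains did not differ beyond the spread between libraries, with log2 fold changes of 0.34 (SE 0.421) for Il27ra, −0.06 (SE 0.343) for Il6st and 0.15 (SE 0.225) for Il6ra, the receptor bound by the 27pepL peptide. Of the IL-18 system, Il18r1 was at 8.85 CPM in IL-27 replicate 1 and at 0.0873 to 0.731 CPM elsewhere, and Il18rap at 16.2 to 33.9 CPM throughout (log2 −0.11, SE 0.204). The IL-27 response genes of lymphocytes had medians of 0.95 and 0.35, and the IL-27 and IL-6 receptor axis of 0.17 and 0.02.

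The genes of the tumor cells and the stroma differed less. Of the 14 tested members of the prostate tumor cell lineage, 12 had a log2 fold change below 0 in both fits, and the median was −0.15 and −0.14. In each fit 1 member was lower at an unadjusted p under 0.05, beside 0.843% and 1.2% of all genes. This member was Krt18, a simple-epithelium keratin, at 1.59 to 3.10 CPM without and 0.498 to 2.97 CPM with an IL-27 plasmid (log2 −0.93, SE 0.392, and −0.83, SE 0.368), the groups overlapping. The cell cycle median was −0.11 and −0.03. With 12 libraries 1 of 24 members was lower at an unadjusted p under 0.05, beside 0.843% of all genes. That member was Mcm3, a subunit of the replicative helicase (log2 −0.51, SE 0.226), which lost such a p without IL-27 replicate 1 (SE 0.224). Fibroblasts and collagens had medians of −0.02 and −0.20 and endothelium of 0.31 and −0.03, with 0 of 18 and 0 of 15 members at an unadjusted p under 0.05 in either edgeR fit. In the list of cholesterol synthesis and LXR targets the medians were −0.03 and −0.11. Apoe and, without IL-27 replicate 1, Nr1h3, the liver X receptor alpha (log2 0.66, SE 0.298), were higher, while Scd1 (log2 −1.16), Fasn (log2 −0.71) and Nr1h2 (log2 −0.45) were lower without that library. Scd1 and Fasn make fatty acids and are also abundant in adipocytes.

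Markers of other tissues moved with the libraries as well. The adipocyte list had a median of 1.41 with 13 of 14 members positive, and of −2.29 with 0 of 14 positive once IL-27 replicate 1 was left out, where pMCS replicate 2 at a mean log2 level of 4.33 was the highest of the others. The skeletal muscle list had medians of 1.10 and 1.05 and was led by Myh4, listed at 0 in all 4 controls at 34.6 and 1.17 CPM in 27→18, and at 0.146 CPM or less in the 6 other libraries. The ribosomal protein median was 0.17 and 0.27 with 22 of 22 members positive in both fits and 0 at an unadjusted p under 0.05. Of all 35 lists, 28 had a median above 0 with 12 libraries and 24 without IL-27 replicate 1, and 28 had a larger median with that library than without it. The part of adipose tissue, muscle and liver RNA in the differences above was not tested gene by gene. With muscle and adipocyte means as covariates, 2 of the 24 leading genes lost an unadjusted p under 0.05 with 12 libraries and 11 did without IL-27 replicate 1.

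The forms of IL-27 and the addition of IL-18 were set side by side as differences of group means, each against its own control, pMCS without and IL-18 with IL-18. For the interferon-inducible GTPases the mean log2 level differed by 1.53 for IL-27, 0.33 for 27pepL, 1.21 for 27→18 and 0.85 for 27pepL→18. For macrophages the differences were 1.29, 0.95, 0.42 and 0.65 in the same order, and for NK and cytotoxic cells 1.28, 0.56, 0.72 and 0.70. For MHC class II presentation they were 1.5, 0.42, 1.29 and 1.02. Every one of these was above 0, but the values for IL-27 rest on replicate 1. IL-27 replicate 2 alone differed from the pMCS mean by −1.13 for the interferon-inducible GTPases, −0.41 for NK and cytotoxic cells, −0.28 for MHC class II presentation and 0.05 for macrophages. Comparisons with the same control share its libraries. The fibroblasts and collagens showed no common direction, at 0.14, 0.07, −0.57 and −0.16.

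Whether the effect of an IL-27 plasmid differed with and without IL-18 was tested as an interaction. No gene passed after adjustment by edgeR (smallest adjusted p 0.957), 687 of 20275 (3.39%) had an unadjusted p under 0.05, of which 423 (2.09%) in the higher and 225 (1.11%) in the lower direction also went beyond a log2 of 1. Without IL-27 replicate 1 these counts were 542 and 214. By DESeq2, 20 genes passed after adjustment, several of which rest on 1 library or on levels near 0. Kcnq1ot1 was at 173 CPM in pMCS replicate 1 and at 3.37 to 13.4 CPM elsewhere. Pagr1b, with an interaction log2 of −25.9, was at 0 to 0.989 CPM over all libraries. Of the 24 leading genes 3 had an interaction p under 0.05. Pcmtd1 was at 16.8 and 21.8 CPM in pMCS but at 5.92 and 6.24 CPM in IL-18, against 12.6 to 43.7 CPM with the plasmid (interaction log2 1.26, SE 0.514), so that its difference stood mainly within IL-18. The others were Ano6, a calcium-activated scramblase, at 23.4 and 58.3 CPM in pMCS, 59.8 and 76.8 in IL-18, against 20.5 to 44.8 CPM with the plasmid (interaction log2 −1.40, SE 0.496), and Pcdhga12, named above for 1 library. Il17rd, a feedback inhibitor of growth factor signaling, was at 6.15 and 11.8 CPM in pMCS, 1.17 and 1.52 in IL-18, against 5.86 to 12.6 CPM with an IL-27 plasmid. Its low values were those of IL-18 alone (interaction log2 2.99 by DESeq2, adjusted p = 0.000319, where edgeR gave an adjusted p of 0.957).

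Within the libraries given IL-18, 4 against 2, Apoe had a log2 fold change of 1.63 (SE 0.310), Gzma of 3.85 (SE 1.07) and Cxcl2 of 1.34 (SE 0.565), and the GTPase median was 1.11. Within those not given IL-18 and without IL-27 replicate 1, Apoe had 1.5 (SE 0.670), Gzma 1.83 (SE 0.849) and Cxcl2 1.79 (SE 0.556), and the median of the interferon-inducible GTPases was −0.07. The groups that hold liver transcripts allow a comparison free of that split, IL-27 against pMCS and IL-18. With both IL-27 libraries Cxcl2 had a log2 fold change of 2.13 (SE 0.583), Gzma of 6.20 (SE 1.79) and Apoe of 1.78 (SE 0.832). With IL-27 replicate 2 alone, whose spread was taken from the other groups, Cxcl2 had 2.45 (SE 0.575), Gzma 1.52 (SE 1.11), Apoe −0.18 (SE 0.346) and the interferon-inducible GTPases a median of −1.69. Among the genes named here, Cxcl2 thus had an unadjusted p under 0.05 in each of these comparisons, and Apoe and the GTPases depended on which library of the IL-27 group was read.

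A fit without both IL-27 libraries, chosen after the data were seen, compared the 6 libraries of 27→18, 27pepL and 27pepL→18 with the 4 controls. In it the plasmid and the absence of liver transcripts coincide and cannot be told apart. Outside the liver set, 2 genes rose and 9 fell after adjustment by edgeR, and 384 and 332 had an unadjusted p under 0.05. Apoe rose at log2 1.75 (SE 0.244, adjusted p = 0.0076, against 0.0076 to 1 over all its settings). Slamf8, a surface receptor of macrophages, rose at log2 1.61 (SE 0.267, adjusted p = 0.0267), and was named after its values were seen. It was at 0.899 and 0.899 CPM in pMCS, 1.52 and 1.14 in IL-18, against 2.40 to 5.48 CPM in the 6 libraries, without overlap, while the IL-27 libraries were at 41.2 and 0.78 CPM. With 12 libraries it had a log2 fold change of 2.56 (SE 0.984) and without IL-27 replicate 1 of 1.43 (SE 0.370). The 9 that fell included Gsta3, Gnmt, Adh1, Pzp, Rbp4, Saa1, Gm5096 and 1300017J02Rik, and several of them are known as liver-expressed genes that the liver rule had not taken. All 9 were lower in every library without liver transcripts than in any that held them, the IL-27 libraries included. Gnmt, glycine N-methyltransferase, was at 2.95 to 5.22 CPM in all 6 libraries that hold liver transcripts and at 0.0374 to 0.243 CPM in the 6 others. Over all 20275 genes outside the liver set, this fit had a median log2 fold change of −0.005, with 384 higher at an unadjusted p under 0.05. Beside these, the interferon-inducible GTPases had a median of 0.74 with 8 of 15 members higher at that p. Macrophages had 0.77 with 8 of 20, NK and cytotoxic cells 0.88 with 9 of 16, MHC class I presentation 0.59 with 9 of 17 and MHC class II presentation 0.92 with 3 of 10.

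Finally, genes were sought whose 8 libraries with an IL-27 plasmid all lay on one side of the 4 others. There were 23 above (0.113% of 20275) and 29 below (0.143%), and 27 (0.133%) and 55 (0.271%) without IL-27 replicate 1. Of those with an average log2 CPM of at least 1, 12 lay above and 13 below. The 12 were Uqcc1, Gzma, Eapp, Ccng2, Paox, Dram2, Fxyd2, Wdfy1, Rgs10, Yipf6, Gmfb and Capza2. Ccng2, an atypical cyclin of quiescent cells, was at 20.2 to 27.2 CPM without and 28.2 to 49.9 CPM with the plasmid, and Dram2, a lysosomal protein of autophagy, at 33.6 to 42.4 and 43.3 to 67.3 CPM. Rgs10, a regulator of G protein signaling found in microglia and macrophages, was at 11 to 18.1 CPM without and 18.2 to 46.8 CPM with it. The 13 below included Acy1, Tfap4, Crtc1, Cyp4f16, Armc9, Kyat1, Abhd8, Arhgap28, Txndc11, Fat1, Acat2 and Dhcr7. Tfap4, a transcription factor downstream of MYC, was at 27.5 to 32.3 CPM without and 18.5 to 26.3 CPM with the plasmid (log2 −0.39, SE 0.140). Acat2 and Dhcr7, both of cholesterol synthesis, were lowest in 27pepL→18 replicate 1, at 3.82 and 2.75 CPM, and at 32.9 CPM or more and 12.5 CPM or more in the other 7 libraries with the plasmid. Apart from Gzma, these differences were under 2-fold. Since complete separation chose these genes, their levels are a description, and none passed an adjusted p of 0.05 in either main fit. In either direction, no share given above exceeded the share that a random order of the libraries would give.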

How the data were processed

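RNA of 12 pools of TC2R tumors was sequenced by the study as stranded poly(A) libraries (the labels name total RNA). The tools named in the submitters' processing notes and methods include Cutadapt, FastQC 0.11.3, HISAT2, StringTie, gffcompare and edgeR. How transcripts became counts, the genome build and its annotation were not given in the sources used here. A single table of unnormalized counts was deposited by the authors for 55450 gene identifiers, all of which were matched to GENCODE M21 for names, chromosomes and transcript lengths. No value column was left without a sample.

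Groups were taken from the labels. Genes were filtered with filterByExpr by group, which left 20417, and scaled with TMM factors. The counts were fitted with edgeR 4.0.16 in R 4.3.3 (glmQLFit and glmQLFTest) with terms for IL-18 and for an IL-27 plasmid, with 12 libraries and without IL-27 replicate 1. Their interaction was a separate fit. P-values were adjusted by Benjamini-Hochberg over all genes tested, and the study's thresholds (a log2 fold change beyond 1 at an unadjusted p under 0.05) were also counted. SE is that of the log2 fold change. Liver genes (a list of 68, plus 115 genes that reached 0.2 raw CPM in each library of IL-27 and its 2 control groups but stayed under 0.1 in every other library) were set aside after the fits. List levels are means of log2(CPM + 0.5) over the tested members.

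The named genes are the 12 in each direction with the smallest p among those outside the liver set, with a symbol that is no predicted gene, an average log2 CPM of at least 1 and an unadjusted p under 0.05 in both fits in the same direction. From each list the leading members by p (at most 4), the delivered cytokines and their receptors were also named, and further members and cell type markers were named after their values were seen. The members and lists were chosen with earlier results of these data known. At 49844915 counts or more per library, counting error was small for all but the lowest genes, and the floors cover counting error only. DESeq2 1.42.0, limma 3.58.1 and the other alternatives are compared in the closing section. The test script was checked on simulated counts. A few genes are not reported here.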

Additional observations from a re-analysis of the deposited data

Results flagged for a closer look

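Of 118 sets of values examined for 1 library far from the rest of its set, 23 held one by Dixon's test at the 95% level, which chance gives in about 1 in 20 sets. In 19 of the 23 this library was IL-27 replicate 1, and 22 concerned list levels, which share cells and libraries. Among the 8 libraries with an IL-27 plasmid, IL-27 replicate 1 lay far above the others in mean log2 level for the IL-27 and IL-6 receptor axis (4.61), the IL-18 axis (4.32), the IL-27 response genes of lymphocytes (3.94) and the cytokine receptor chains (5.22). It did so for the interferon-inducible GTPases (6.55), the antiviral interferon-stimulated genes (6.22), MHC class I presentation (7.75) and MHC class II presentation (7.42). Among cell types it did so for T cells (3.63), NK and cytotoxic cells (3.99), regulatory T cells and checkpoints (3.83), dendritic cells (3.8), the pan-leukocyte genes (6.71) and adipocytes (7.92). The same held for inflammatory NF-kB targets (4.71), Toll-like receptors (4.37) and cholesterol synthesis and LXR targets (6.48). It lay far below the others for RAS-MAPK feedback (5.12) and the cell cycle (6.24). The part of adipose tissue or of more leukocytes in these levels was not tested.

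Among the 4 libraries without an IL-27 plasmid, pMCS replicate 1 lay far below the others for endothelium (3.37) and for fibroblasts and collagens (7.02), and IL-18 replicate 1 for the liver list (1.68), all as mean log2 levels. Eapp, the only single gene here, was at 17.7 CPM in IL-18 replicate 1, below the 19.4 to 19.7 CPM of the 3 others.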

How the results depend on the processing

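The comparison rests on 2 pools per group and on the liver split, and the cause of the shifts below was not tested. With 12 libraries, 244 genes were higher and 93 lower at the study's thresholds. The counts were 402 and 375 without the filter on low counts, 377 and 142 by DESeq2, 473 and 208 with muscle and adipocyte covariates, 1256 and 166 with a term for libraries holding liver transcripts, and 472 and 205 with only libraries given IL-18. They were 149 and 130 with only libraries not given IL-18, 298 and 456 by limma, 300 and 145 with a transcript length trend, 218 and 273 with 1 term per group and 173 and 226 without both IL-27 libraries. Genes past an adjusted p numbered 10 by DESeq2, 4 with 1 term per group, 4 with only libraries given IL-18 and 11 without both IL-27 libraries, in place of 0. The 4 with 1 term per group were Gnmt, Gsta3, Pzp and Gm5096. Each was lower in every library without liver transcripts than in any that held them, as were the 9 that fell without both IL-27 libraries. Gsta3 was also among the 4 with only libraries given IL-18. Leaving out each library in turn gave 0 past an adjusted p, 129 (without IL-27 replicate 1) to 394 (without IL-27 replicate 2) higher and 65 to 161 lower (161 without IL-27 replicate 1).

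Without IL-27 replicate 1, 129 genes were higher and 161 lower. The counts were 197 and 432 without the filter, 253 and 464 by limma, and 369 and 346 with muscle and adipocyte covariates. They were 472 and 205 with only libraries given IL-18, 98 and 370 with 1 term per group, 114 and 380 with the liver term, 158 and 396 in the groups holding liver transcripts and 154 and 259 with only libraries not given IL-18. Genes past an adjusted p numbered 6 by DESeq2, 5 with 1 term per group, 1 with the liver term and 4 with only libraries given IL-18. The 5 with 1 term per group again included Gsta3, Gnmt and Pzp. Leaving out each further library gave 0 to 11 past an adjusted p (11 without IL-27 replicate 2), 82 (without 27pepL replicate 1) to 249 (without pMCS replicate 1, and 229 without pMCS replicate 2) higher and 123 to 226 lower. For the interaction, 648 genes were at the thresholds, 1039 without the filter and 295 (without pMCS replicate 1) to 1390 (without pMCS replicate 2) with a library left out, or 357 without IL-18 replicate 2. DESeq2 called 20 and leaving out a library 0 to 4 (4 without pMCS replicate 2).

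Over the 24 leading genes and the alternatives, 1090 values kept their direction and an unadjusted p under 0.05, 154 lost that p and 3 changed sign. All 3 were without IL-27 replicate 1: Apoe at −0.27 with the liver term and −0.18 in the groups holding liver transcripts, and Gatad2a at 0.023 in the latter. The losses were uneven over the alternatives. With the liver term, 10 of the 24 genes lost that p with 12 libraries, and 19 lost it or changed sign without IL-27 replicate 1. In the groups holding liver transcripts, 14 of the 24 lost it with both IL-27 libraries. With RLE scaling 0 lost it in either fit. With the replicate number as a block, 205 genes were higher and 90 lower with 12 libraries, 125 and 183 without IL-27 replicate 1, and 577 were at the thresholds for the interaction. Same-numbered libraries did not deviate together (r of −0.376 to 0.481 over 15 pairs of groups), so that the numbers were not taken as pairing.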
